A study of Drosophila melanogaster with 14 samples.

Results

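The regions described here are the ChIP-seq peaks of 4 Drosophila melanogaster insulator proteins on U and Uextra, the 2 collections of scaffolds that the genome assembly could not place on a chromosome. They were chosen by sequence name alone, and 10357 of the 81028 peaks in the series (12.8%) met that rule, 1069 on U and 9288 on Uextra. Overlapping peaks of all lists were merged into 2620 regions, 320 on U and 2300 on Uextra. The regions had a median width of 727 bp, an interquartile range of 565.75 to 935.25 bp and extremes of 156 and 16001 bp.

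The cells were Kc167, a line derived from Drosophila embryos and grown without serum. They were mapped untreated (0 h) and after 3 h and 48 h in 5e-07 M 20-hydroxyecdysone (20HE), the steroid hormone that triggers moulting and metamorphosis in flies. Each of CP190, Su(Hw), dCTCF and BEAF-32 was immunoprecipitated at each time in 1 library, which gave 12 peak lists and no replicates. Of the 14 samples, 2 were input libraries of untreated cells and are not analysed here.

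Insulator proteins bind sites that separate chromatin domains and that meet in loops. BEAF-32, dCTCF and Su(Hw) bind DNA directly: BEAF-32 was found as a boundary factor, dCTCF is the fly counterpart of vertebrate CTCF, and Su(Hw) binds the insulator of the gypsy retrotransposon. CP190 is a zinc-finger and BTB-domain protein that is brought to many of their sites and is needed for insulation at a number of them. Unplaced scaffolds come largely from heterochromatin, and much of their sequence consists of transposons and satellites present in many copies. A read from such a copy may map to several places, so 2 peaks on U or Uextra need not be 2 independent sites. No source used here says how the authors placed such reads.

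Every peak carries a score from the authors that no label or header defines. It runs from 100 up to a ceiling at 3100, where many peaks are tied. The score percentile used below is the position of a peak within its own whole list, from 0 for the lowest score to 100 for the highest, and tied peaks share a middle position. No source says that scores of different lists share a scale, so a score given across times is the deposited value and the percentile places it in its own list. Shares carry 95% Wilson intervals in parentheses, which cover counting error alone. With 1 library for each protein and time, no test between times was possible and none was run. Read depth is unknown because the files give peaks without counts. The main arms X, 2L, 2R, 3L, 3R and 4 held 69799 peaks and the heterochromatic pieces whose names end in Het held 871.

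The share of a list that lay on unplaced sequence differed widely between proteins. It was 13.6%, 13.4% and 14.6% for CP190 at 0, 3 and 48 h, and 27.25%, 22.5% and 32.6% for dCTCF. For BEAF-32 it was 29.6% at 0 h (28.5 to 30.8), 11.4% at 3 h (10.7 to 12.2) and 7.44% at 48 h (6.82 to 8.10). For Su(Hw) it was 0.113%, 0.117% and 0.108%, although the Su(Hw) lists were the longest of the 4 proteins. CP190 thus held a nearly level share, dCTCF had its lowest share at 3 h, and BEAF-32 had a lower share at each later time. In the top 50% of each list by score, the BEAF-32 peaks numbered 768, 78 and 92, so there the 3 h count was the lowest. U taken alone held 115, 125 and 113 CP190 peaks, 127, 123 and 164 dCTCF peaks and 167, 68 and 67 BEAF-32 peaks at 0, 3 and 48 h, so there the BEAF-32 counts of 3 h and 48 h were alike. No Su(Hw) list had a peak on U.

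**Figure D1:**
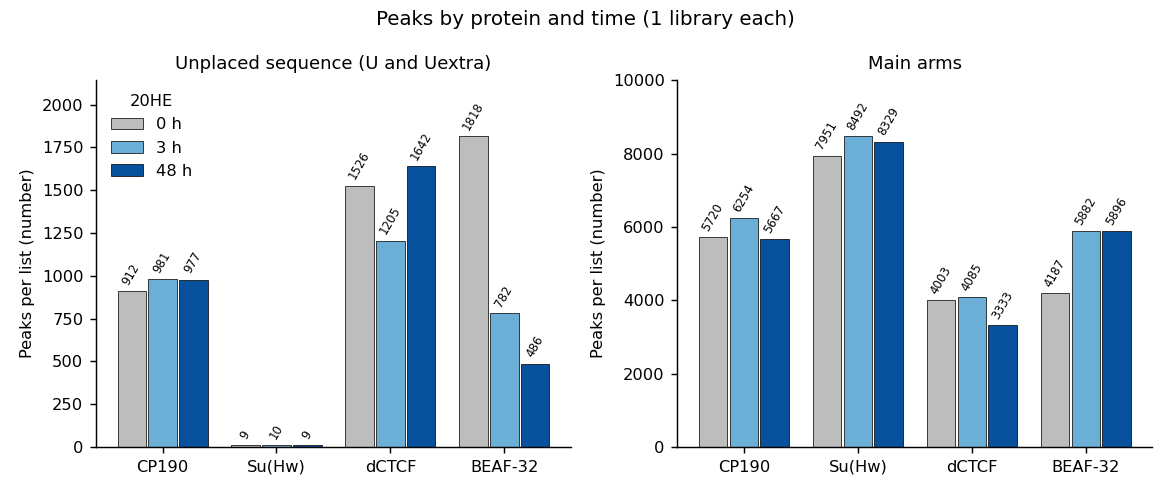
Number of peaks per list on unplaced sequence (left) and on the main arms (right) for each protein, with bars for 0, 3 and 48 h in 20HE and 1 library per bar. BEAF-32 has 1818, 782 and 486 peaks on unplaced sequence, while its bars at 3 and 48 h stand above the 0 h bar on the arms, and Su(Hw) has 9, 10 and 9 unplaced peaks.

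Most regions were found more than once. Of the 2620 regions, 600 held a peak in a single list, 554 held peaks in exactly 3 lists and 2 held peaks in 10 lists, the most reached. Of the 600 regions seen once, 332 had their only peak in the BEAF-32 list of 0 h and 120 in the dCTCF list of 48 h. The CP190 list of 0 h came next with 52.

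The rank of the unplaced peaks within their lists also differed by protein. CP190 peaks on unplaced sequence were low in their lists, with median score percentiles of 28.5, 27.2 and 31.5 at 0, 3 and 48 h, where those on the arms had 54.4, 54.8 and 54.7. dCTCF peaks on unplaced sequence stood at 55.4, 52.7 and 52.3, close to or above the 46.3, 49.1 and 48.4 of the arms. BEAF-32 peaks on unplaced sequence stood at 42.9, 29.4 and 17.4, against 54.6, 55.5 and 53.1 on the arms. The fall was on Uextra, where the BEAF-32 medians were 45.6, 29.9 and 16.5. On U alone they were 21.6, 20.8 and 23.1. Of the 486 unplaced BEAF-32 peaks of 48 h, 92 (18.9%) stood in the top 50% of their list. At the score ceiling there were 323, 46 and 49 unplaced BEAF-32 peaks at 0, 3 and 48 h, 399, 212 and 362 dCTCF peaks and 25, 32 and 32 CP190 peaks. The median width was 655, 518.5 and 580 bp for BEAF-32, 443, 503 and 616.5 bp for dCTCF and 701, 793 and 761 bp for CP190. Unplaced dCTCF peaks were thus widest at 48 h and unplaced BEAF-32 peaks at 0 h. The order of times was the same on the arms, so it was not particular to unplaced sequence. Arm peaks had medians of 869, 781 and 812 bp for BEAF-32, 536, 551 and 703 bp for dCTCF and 996, 1103 and 1051 bp for CP190.

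**Figure D2:**
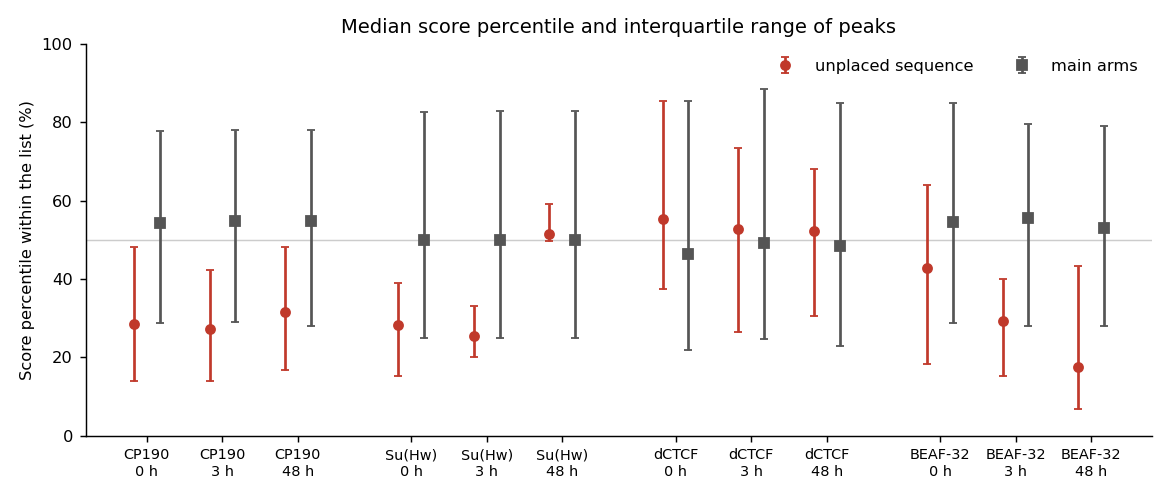
Score percentile of peaks within their own list (median, with bars for the interquartile range) for each protein and time, with unplaced sequence in red on the left and the main arms in grey on the right of each pair. Unplaced CP190 peaks sit at medians of 28.5, 27.2 and 31.5, dCTCF peaks at 55.4, 52.7 and 52.3, and BEAF-32 peaks at 42.9, 29.4 and 17.4.

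CP190, the partner that the DNA-binding proteins recruit, had 1146 unplaced regions over the 3 times. A CP190 peak was present at all 3 times in 724 of them (63.2%; 60.3 to 65.9), where the share over all sequences was 72.4%. The next class, 108 regions with CP190 at 3 and 48 h and not at 0 h (9.42%), was larger than the 5.26% of all sequences. CP190 at 0 h alone was found in 78 regions (6.81%), at 48 h alone in 79 (6.89%) and at 3 h alone in 70 (6.11%), where all sequences had 2.87%, 4.73% and 7.24%. The pairs of 0 and 3 h (55 regions, 4.80%) and of 0 and 48 h (32 regions, 2.79%) stood beside 6.42% and 1.12%. Unplaced CP190 regions were thus less often of all 3 times and more often of 0 h alone or 48 h alone than CP190 regions over all sequences. CP190 regions of all 3 times mostly held a DNA-binding partner at 0 h: dCTCF was present in 582 of the 724 (80.4%) and BEAF-32 in 563 (77.8%). Of all unplaced CP190 peaks of 0 h, 71.2% overlapped dCTCF and 70.4% BEAF-32, with 50.4% and 51.2% over all sequences. Only 55 of the 724 regions (7.60%) were free of the other proteins at every time. This held for 52 of the 78 regions with CP190 at 0 h alone (66.7%), the highest share of any class. In the other classes it was 24.3% at 3 h alone, 24.1% at 48 h alone, 21.3% at 3 and 48 h, 32.7% at 0 and 3 h and 18.75% at 0 and 48 h. These shares compare unplaced classes with each other, and none over all sequences is given. Of the 912 CP190 peaks of 0 h, 87.6% overlapped a peak at 3 h (85.3 to 89.6) and 85.0% a peak at 48 h (82.5 to 87.2), and on the arms these shares were 96.4% and 89.1%. Over all sequences, 4.80% and 11.4% of the 0 h CP190 peaks had no overlapping peak at 3 h and at 48 h. The weakest CP190 peaks, with scores from 100 to 200, kept a peak at 48 h in 76.5% of cases on unplaced sequence (72.0 to 80.5) and in 57.5% on the arms (54.6 to 60.3). Stronger unplaced CP190 peaks did not show that excess, and from 400 to 1000 the shares were 90.8% on unplaced sequence and 99.0% on the arms. Of the unplaced CP190 peaks of 3 h and 48 h, 19.3% and 21.4% overlapped no 0 h peak, with 13.1% and 10.7% on the arms and 14.0% and 12.3% over all sequences.

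BEAF-32 kept a smaller share of its unplaced 0 h peaks than the other 3 proteins did. Of the 1818 peaks of 0 h, 37.8% overlapped a BEAF-32 peak at 3 h (35.6 to 40.0) and 23.8% one at 48 h (21.9 to 25.8). Over all sequences, 25.4% of the 0 h BEAF-32 peaks had no overlapping peak at 3 h and 29.9% had none at 48 h. The share kept was higher for stronger 0 h peaks. At 3 h it was 7.88%, 16.3%, 26.5% and 57.0% in unplaced score classes of 100 to 200, 200 to 400, 400 to 1000 and 1000 to 3100, and 86.1% at the ceiling. The same classes on the arms kept 68.7%, 78.4%, 92.4%, 98.4% and 100%. At 48 h the unplaced shares were 9.13%, 21.0%, 22.6%, 26.2% and 45.8%, where the arms kept 66.4%, 78.8%, 92.1%, 98.4% and 100%. Among unplaced peaks at the ceiling, 45 of 323 had no overlapping peak at 3 h and 175 of 323 had none at 48 h, while none of the 1497 ceiling peaks of the arms was without one at either time. Intervals of unplaced sequence and arms did not overlap in any class at either time. The Het pieces, which are also heterochromatic but are assigned to a chromosome, kept 80.8% of 130 BEAF-32 peaks at 3 h (73.2 to 86.6) and 76.9% at 48 h (69.0 to 83.3).

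**Figure D3:**
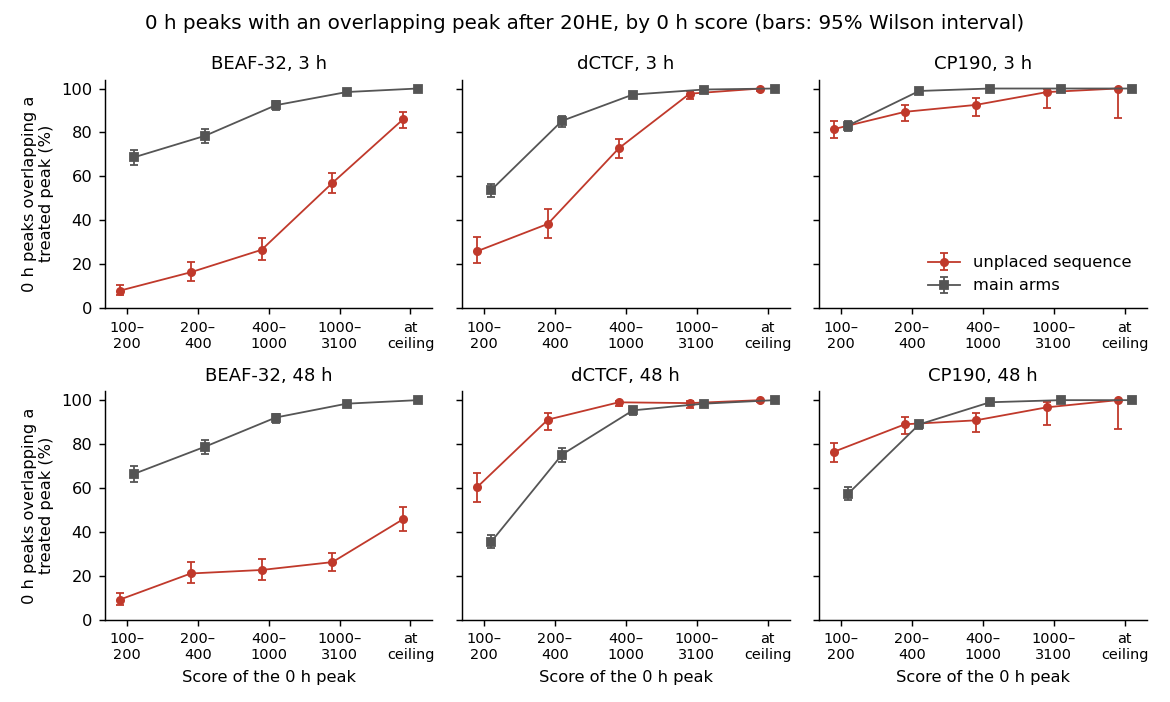
Share of 0 h peaks that overlap a peak of the same protein at 3 h (top) or 48 h (bottom), by the score of the 0 h peak, for BEAF-32, dCTCF and CP190 on unplaced sequence (red circles, left of each pair) and on the main arms (grey squares), with 95% Wilson intervals. The unplaced BEAF-32 shares lie below those of the arms in all 5 classes at both times, and at 48 h the weak dCTCF and CP190 peaks lie above them.

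By region, BEAF-32 had a peak at 0 h in 1801 unplaced regions, and 1077 of these (59.8%) had none at 3 h or 48 h. Over all sequences this held for 24.3% of the BEAF-32 regions of 0 h. Another 294 regions had BEAF-32 at 0 and 3 h and not at 48 h, 391 had it at all 3 times and 39 at 0 and 48 h. As shares of all 1869 unplaced BEAF-32 regions these 4 classes were 57.6%, 15.7%, 20.9% and 2.09%, where all sequences had 17.2%, 4.14%, 48.5% and 0.875%. New regions were few: 31 had BEAF-32 at 3 and 48 h alone (1.66%), 17 at 3 h alone (0.910%) and 20 at 48 h alone (1.07%), and all sequences had 19.6%, 4.55% and 5.26%. The treated lists lay almost wholly within the 0 h set, since 93.5% of the 733 regions of 3 h (91.4 to 95.03) and 89.4% of the 481 regions of 48 h (86.3 to 91.8) had BEAF-32 at 0 h as well. In addition, 87.7% of the regions of 48 h already held BEAF-32 at 3 h (84.5 to 90.4). Both treated lists are set against the same 0 h list here. Of the unplaced BEAF-32 peaks, 6.14% of 782 at 3 h and 10.5% of 486 at 48 h overlapped no 0 h peak, against 35.7% and 36.5% on the arms, with 32.3% and 34.5% over all sequences.

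**Figure D4:**
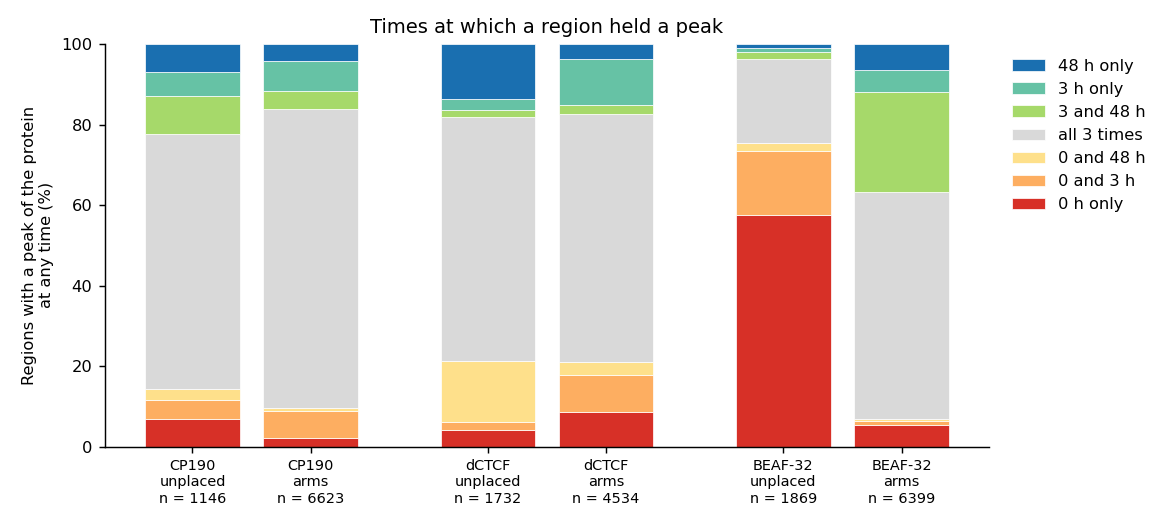
Share of the regions with a peak of CP190, dCTCF or BEAF-32 at any time that fall into each of the 7 time classes, with unplaced sequence left of the main arms for each protein. The class of BEAF-32 at 0 h only takes 57.6% of the unplaced BEAF-32 regions and 5.50% of those on the arms, and the class of dCTCF at 0 and 48 h takes 15.4% and 3.13%.

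Where BEAF-32 remained on unplaced sequence, its peaks stood lower in the list and were narrower. In the 685 regions with BEAF-32 at both 3 h and 0 h, the median score percentile was 31.2 at 3 h and 65.5 at 0 h, and the percentile was lower at 3 h in 625 of them. The median width was 535 bp at 3 h and 748 bp at 0 h. In the 430 regions shared by 48 h and 0 h the median percentile was 18.4 at 48 h and 58.0 at 0 h, and it was lower at 48 h in 371 of them. The median difference within a region from 0 h was -37.5 at 3 h and -12.3 at 48 h. On the arms the medians were 79.6 at 3 h and 61.0 at 0 h over 3663 regions. There the percentile was lower at 3 h in 1702 of 3663 regions and at 48 h in 1720 of 3647. The ceiling stands at 85.0, 79.6 and 78.9 in the lists of 0, 3 and 48 h, so a region at the ceiling at both times counts as lower. A percentile is relative to the other peaks of its list, and the treated BEAF-32 lists hold more peaks at the ceiling on the arms. A count at the ceiling uses the score as deposited: of the 391 unplaced regions that kept BEAF-32, 148 stood at the ceiling at 0 h, 46 at 3 h and 49 at 48 h.

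Among the regions that BEAF-32 left, 45 had a 0 h peak tied at the ceiling, and the 5 with the widest such peak are described here. The leading one, U:2190185-2199739, held a BEAF-32 peak of 9191 bp at 0 h, the widest of the ceiling peaks in its list. It had no other peak except dCTCF at 48 h, which covered all 9555 bp and was the widest ceiling peak of that dCTCF list. The next, Uextra:28422616-28425163, held a BEAF-32 peak of 2548 bp at 0 h together with CP190 and dCTCF at all 3 times. Its CP190 scores were 545.48, 952.32 and 985.07 at 0, 3 and 48 h and its dCTCF scores 993.71, 128.46 and 1937.04. Uextra:28756097-28758131 and Uextra:28559998-28562981 also kept CP190 and dCTCF throughout, and their best BEAF-32 peaks at 0 h were 2035 and 1896 bp wide. Uextra:28487284-28488927 had BEAF-32 over 1644 bp at 0 h and weak dCTCF peaks, with scores of 100.59, 101.37 and 350.17 at 0, 3 and 48 h. Thus in 4 of these 5 regions dCTCF was present at 3 h and at 48 h, when BEAF-32 was no longer called.

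The 5 regions with the widest ceiling peaks among those that kept BEAF-32 all lay between 28 and 29 Mb of Uextra. In Uextra:28976760-28983479, BEAF-32 at 0 h was a single peak of 6680 bp at the ceiling. At 3 h the region held 7 separate BEAF-32 peaks, the best with a score of 1761.11 and 1055 bp, and at 48 h it held 1 peak of 731 bp with a score of 100.79. CP190 in the same region had best scores of 669.85, 541.81 and 665.2 at 0, 3 and 48 h. dCTCF had 2785.92, 311.05 and 3100, lowest at 3 h. The other 4 regions of that set showed the same course for BEAF-32, with a ceiling peak of 3262 to 4709 bp at 0 h, best scores of 604.9 to 1600.03 at 3 h and best scores of 112 to 189.99 at 48 h. These 5 were picked for BEAF-32 peaks at all 3 times and for a 0 h score at the ceiling. The call at 48 h was thus fixed by that choice, and a later score could not rank above the 0 h one. Their best scores at 48 h, from 100.79 to 189.99, lay near the minimum of 100.

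CP190 and, by 48 h, dCTCF were mostly found again in the regions that BEAF-32 left, as they were over all unplaced regions. In these 1077 regions CP190 was present in 399 (37.0%), 417 (38.7%) and 422 (39.2%) at 0, 3 and 48 h. Where CP190 had been there at 0 h, it was found again in 94.2% at 3 h and 93.2% at 48 h, with 87.6% and 85.0% over all unplaced CP190 regions of 0 h. dCTCF was present in 516 (47.9%), 384 (35.7%) and 577 (53.6%) of the 1077 regions, and where it had been there at 0 h it was found again in 67.8% at 3 h and 89.7% at 48 h, with 76.3% and 92.7% over all unplaced dCTCF regions of 0 h. Over all sequences, 4.80% and 11.4% of the 0 h CP190 peaks and 18.5% and 18.3% of the 0 h dCTCF peaks were not found again at 3 h and 48 h. No protein other than BEAF-32 had a peak at any time in 332 of the 1077 regions (30.8%; 28.1 to 33.7), and the same share over all sequences is not given. The BEAF-32 peaks lost from these regions were mostly weak, with a median score percentile of 26.8 at 0 h and 45 peaks at the ceiling.

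The 1077 regions differed among themselves when split by dCTCF. In 237 of them the 0 h dCTCF peak stood at the ceiling, and there BEAF-32 at 0 h was weak, with a median percentile of 19.4 and no peak at the ceiling. All 237 held dCTCF again at 3 h and at 48 h, and 209 (88.2%) held CP190 at 0 h. In 279 regions the dCTCF peak was under the ceiling, the BEAF-32 percentile was 49.2, and dCTCF was found in 113 at 3 h and 226 at 48 h. In the remaining 561 regions dCTCF had no peak at 0 h, the BEAF-32 percentile was 19.7 and CP190 was present in 15.9%. This split was chosen after the values were seen.

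The 294 regions that held BEAF-32 at 0 and 3 h and lacked it at 48 h nearly all held dCTCF. Of these, 287 lay on Uextra, and 288 (98.0%; 95.6 to 99.1) had dCTCF at 0 h, against 49.6% of the 391 regions that kept BEAF-32 (44.7 to 54.6). Over all sequences the shares were 90.3% of 350 regions and 47.8% of 4100 regions, and 294 of the 350 were unplaced. The share in the regions that kept BEAF-32 moved with the peaks used. It was 14.5% of 62 regions in the top 50% of each list by score, 17.1% of 164 with all lists shortened to the length of the shortest, 28.6% of 49 on U alone and 38.5% of 317 without the positions over 28 Mb of Uextra. In the regions with BEAF-32 at 0 and 3 h the same settings gave 90.0% of 10, 99.6% of 234, 85.7% of 7 and 96.6% of 175. On the arms alone they were 53.1% of 49 regions (39.4 to 66.3) and 48.4% of 3614. dCTCF was present in 61.6% of the 294 regions at 3 h and in 97.6% at 48 h. BEAF-32 itself stood high at 0 h, at a median percentile of 68.2 with 129 peaks at the ceiling, and low at 3 h, at 23.3 with none.

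**Figure D5:**
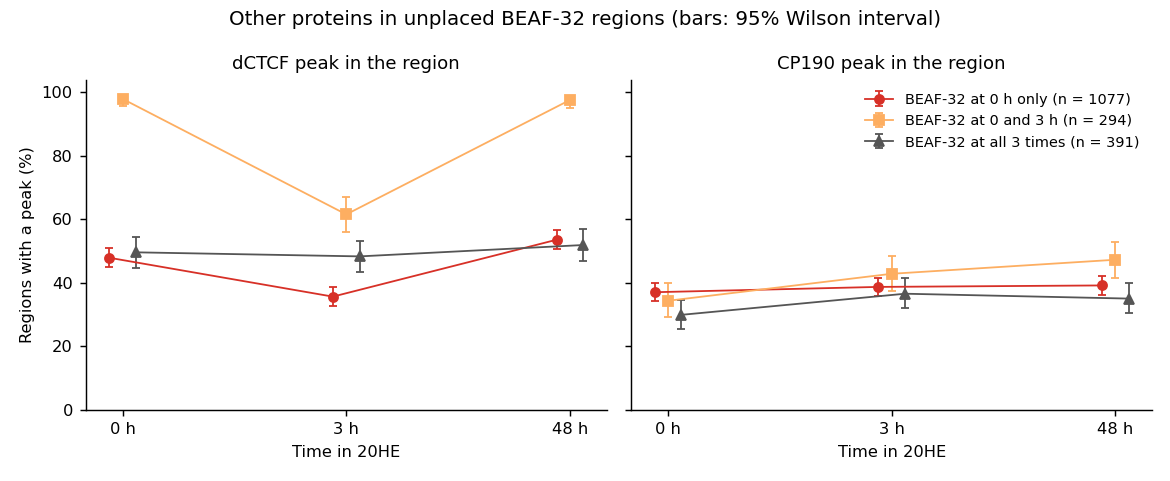
Share of unplaced regions with a dCTCF peak (left) or a CP190 peak (right) at 0, 3 and 48 h, for regions with BEAF-32 at 0 h only, at 0 and 3 h, and at all 3 times, with 95% Wilson intervals. dCTCF is found in 98.0%, 61.6% and 97.6% of the regions with BEAF-32 at 0 and 3 h and at 0 h in 47.9% and 49.6% of the regions with BEAF-32 at 0 h only and at all times, while CP190 stays between 29.9% and 47.3% in all 3 classes.

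Read from the 0 h side, BEAF-32 with dCTCF was kept more often at 3 h and less often at 48 h than BEAF-32 without dCTCF. Of 1005 unplaced BEAF-32 regions with dCTCF at 0 h, 48.0% had BEAF-32 at 3 h (44.9 to 51.1) and 20.0% at 48 h (17.6 to 22.6). Of 796 without dCTCF, 25.5% had it at 3 h (22.6 to 28.6) and 28.8% at 48 h (25.7 to 32.01). Over all sequences the shares were 76.2% and 66.8% with dCTCF and 72.8% and 72.9% without. Those sets include the unplaced regions, which are 1005 of the 2986 with dCTCF and 796 of the 2989 without. On the arms alone the shares were nearly level, at 90.6% and 90.7% with dCTCF and 90.4% and 89.6% without. The 2 unplaced sets differed in strength, since 293 of the 1005 and 29 of the 796 regions had BEAF-32 at the ceiling. Under the ceiling the shares were 31.0% with dCTCF and 24.4% without at 3 h, and 9.69% with dCTCF (7.73 to 12.1) and 27.8% without (24.7 to 31.0) at 48 h. Split by CP190, 34.9% of the unplaced regions with CP190 (31.3 to 38.8) and 39.7% of those without (36.9 to 42.5) had BEAF-32 at 3 h, and 19.9% with CP190 (16.9 to 23.2) and 26.0% without (23.6 to 28.6) had it at 48 h. Over all sequences the order was the opposite, with 81.8% and 65.1% at 3 h and 78.9% and 58.2% at 48 h. Under the ceiling the unplaced shares were 14.9% with CP190 and 33.0% without at 3 h, and 10.8% with CP190 and 22.6% without at 48 h. On the arms, BEAF-32 under the ceiling was kept at 48 h in 82.8% of regions with dCTCF and 85.4% without, and in 86.5% with CP190 and 81.2% without.

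The number of dCTCF peaks on unplaced sequence was lowest at 3 h and highest at 48 h, at 1526, 1205 and 1642 peaks. In the top 50% of each list by score it was highest at 0 h, at 899, 644 and 868 peaks. dCTCF had 1732 regions, and a peak at all 3 times in 1046 of them (60.4%), near the 61.2% of all sequences. The next classes were 266 regions with dCTCF at 0 and 48 h and not at 3 h (15.4%) and 238 regions with dCTCF at 48 h alone (13.7%), where all sequences had 6.47% and 6.59%. On the arms these classes held 3.13% and 3.77%, and dCTCF at 3 h alone, 11.3% of the arm regions, was 2.54% of the unplaced ones and 8.86% over all sequences. The classes of 0 h alone (4.04%), of 0 and 3 h (1.963%) and of 3 and 48 h (1.963%) stood beside 7.41%, 7.32% and 2.17% of all sequences. Of the 1526 dCTCF peaks of 0 h, 73.5% overlapped a peak at 3 h (71.2 to 75.6) and 92.8% one at 48 h (91.4 to 94.0), where the arms had 84.7% and 77.6%. Over all sequences, 18.5% had no overlapping peak at 3 h and 18.3% had none at 48 h. The weakest class, with scores from 100 to 200, kept 25.8% at 3 h and 60.3% at 48 h on unplaced sequence and 53.7% and 35.5% on the arms. All 399 unplaced dCTCF peaks at the ceiling at 0 h overlapped a peak at both later times. Of the unplaced dCTCF peaks of 3 h and 48 h, 6.72% and 17.2% overlapped no 0 h peak, with 17.1% and 9.001% on the arms and 14.7% and 11.8% over all sequences. The 48 h peaks were wider: in 1312 regions with dCTCF at both times the median width was 619 bp at 48 h and 456 bp at 0 h, and on the arms it was 716 bp and 591 bp.

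The 266 dCTCF regions without a 3 h peak mostly held BEAF-32. It was present at 0 h in 246 of them (92.5%; 88.7 to 95.1), in 66.7% of the 1046 regions that held dCTCF at all times, and in 45.8% of the 238 regions with dCTCF at 48 h alone. Over all sequences the shares were 83.5%, 57.1% and 42.2%, and 266 of the 411 regions behind the first and 238 of the 419 behind the last were unplaced. On the arms alone they were 68.3% of 142, 54.0% of 2795 and 37.4% of 171 regions. BEAF-32 stayed in 122 of the 266 regions at 3 h and in 19 at 48 h. dCTCF itself was of middling rank in these regions, with percentiles of 33.1 at 0 h and 45.1 at 48 h and no peak at the ceiling. The 238 regions new at 48 h were weaker still, with a median percentile of 18.0. Of these, 120 were free of the other proteins at every time, and the same share over all sequences is not given. CP190 was present in 5.04% of the 238 at 0 h and in 6.72% at 48 h.

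The 5 regions in which dCTCF was found at 48 h alone and stood at the ceiling each held a BEAF-32 peak at 0 h and nothing else. U:2190185-2199739, described above, was the first. In Uextra:26418750-26419739 dCTCF stood at the ceiling over 990 bp at 48 h, and BEAF-32 had a score of 619.84 over 712 bp at 0 h. U:2293278-2294135, Uextra:18613596-18614336 and Uextra:26504533-26505075 had dCTCF at the ceiling at 48 h over 858, 717 and 517 bp, and BEAF-32 scores of 373.12, 379.03 and 413.61 at 0 h. None of the 5 had a CP190 or Su(Hw) peak at any time.

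CP190, dCTCF and BEAF-32 met in fewer unplaced regions at each later time. All 3 had a peak in 521 regions at 0 h, 230 at 3 h and 134 at 48 h, which is 22.1%, 12.8% and 6.45% of the regions with any of them. On U alone there were 46, 12 and 13 such regions, so the counts of 3 h and 48 h were alike there. Over all sequences the shares were 22.6%, 19.6% and 15.8%. They were shared at all 3 times in 89 regions and at any time in 591. BEAF-32 was the protein most often missing later: of the 521 regions, CP190 was present in 504 at 3 h (96.7%) and 494 at 48 h (94.8%), and dCTCF in 431 (82.7%) and 488 (93.7%). Over all sequences these shares were 98.8% and 96.2% for CP190 and 87.0% and 85.7% for dCTCF. BEAF-32 was present in 205 of them at 3 h (39.3%) and 111 at 48 h (21.3%), where it stayed in 91.4% and 91.5% of the 1811 such regions of the arms and in 79.8% and 75.8% of those over all sequences. CP190 and dCTCF without BEAF-32 were what 245 of the 521 regions held at 3 h and 362 at 48 h.

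The pairing of the proteins at 0 h also differed from the arms. dCTCF and BEAF-32 without CP190 made up 484 of the 2356 unplaced regions with any of the 3 at 0 h (20.5%), against 1.91% of 7811 regions on the arms and 6.20% over all sequences. From the side of dCTCF, 43.4% of unplaced peaks overlapped CP190 at 0 h (41.0 to 45.9) and 72.9% overlapped BEAF-32 (70.6 to 75.04), where the arms had 71.2% and 51.4% and all sequences 63.3% and 57.0%. From the side of BEAF-32, 34.7% of unplaced peaks overlapped CP190 (32.6 to 36.9) and 66.3% did on the arms, with 55.8% over all sequences. CP190 showed the reverse, and 71.2% of its unplaced peaks overlapped dCTCF (68.1 to 74.0) and 70.4% BEAF-32 (67.4 to 73.3), where the arms had 47.2% and 48.4% and all sequences 50.4% and 51.2%. At 48 h, 73.7% of the unplaced CP190 peaks overlapped dCTCF and 15.3% overlapped BEAF-32, with 44.0% and 48.7% over all sequences. At 3 h the shares were 65.1% and 28.5%, with 45.6% and 53.0% over all sequences. CP190 on unplaced sequence was thus found mainly where dCTCF was at each time, while most unplaced BEAF-32 lay outside CP190.

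Su(Hw) had 28 unplaced peaks among the 24838 of its 3 lists. They formed 12 regions, all on Uextra, 428 to 1013 bp wide, with a peak at 0, 3 and 48 h in 9, 10 and 9 of them and at all 3 times in 7. Over all sequences 70.9% of the Su(Hw) regions held Su(Hw) at all 3 times. Of the 9 peaks of 0 h, 2 had no overlapping Su(Hw) peak at 3 h and 1 had none at 48 h, and 3 of 10 peaks at 3 h and 1 of 9 at 48 h overlapped none of 0 h. The shares over all sequences were 7.55% and 11.4% of the 0 h peaks and 13.1% and 15.9% of the treated ones. dCTCF had a peak at some time in all 12, in 11 at 0 h, 10 at 3 h and 9 at 48 h. BEAF-32 was present in 8 at 0 h, 7 at 3 h and none at 48 h, and CP190 in 5, none and 4. At 0 h all 9 unplaced Su(Hw) peaks overlapped dCTCF (70.1 to 100), where 29.3% of those on the arms and 29.4% over all sequences did. BEAF-32 was overlapped by 6 of the 9 and CP190 by 5 of the 9, with 23.4% and 48.1% over all sequences. At 3 h, 8 of 10 overlapped dCTCF, 7 of 10 overlapped BEAF-32 and none overlapped CP190, with 29.3%, 30.4% and 50.3% over all sequences. At 48 h, 6 of 9 overlapped dCTCF (35.4 to 87.9), with 24.9% on the arms and 25.0% over all sequences. BEAF-32 was overlapped by none of the 9 at 48 h and CP190 by 3, with 29.1% and 46.3% over all sequences.

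The 2 regions with peaks in 10 lists were both Su(Hw) regions. In Uextra:7039032-7039854, Su(Hw) scores were 946.93, 989.81 and 3100 at 0, 3 and 48 h, and dCTCF scores were 3100, 3100 and 716.59. CP190 had 544.61 at 0 h and 233.61 at 48 h with no peak at 3 h, and BEAF-32 had 138.55 at 0 h and 879.12 at 3 h with no peak at 48 h. In Uextra:19603767-19604474, Su(Hw) scores were 165.78, 198.29 and 560.01 and dCTCF scores 1783.35, 1343.64 and 214.56. CP190 had 568.24 at 0 h and 269.46 at 48 h, and BEAF-32 had 198.2 at 0 h and 299.61 at 3 h. The 2 regions thus shared a course in which Su(Hw) was highest at 48 h, dCTCF was lowest at 48 h, and BEAF-32 was absent at 48 h.

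The same course of Su(Hw) and dCTCF was seen in the other Su(Hw) regions of all 3 times. In Uextra:2684261-2684978, Su(Hw) scores were 1017.34, 1161.87 and 3149.54 and dCTCF scores 3100, 3100 and 489.54. In Uextra:3094442-3094907 they were 408.65, 191.74 and 838.24 for Su(Hw) and 1896.9, 1865.08 and 284.04 for dCTCF. In Uextra:3809267-3809840 they were 263.27, 274.9 and 1133.76 for Su(Hw) and 3100, 2627.16 and 371.57 for dCTCF. These 3 regions had BEAF-32 at 0 and 3 h and not at 48 h. Uextra:9037027-9037496 had Su(Hw) scores of 155.3, 243.82 and 918.62, and dCTCF scores of 1702.53 at 0 h and 1605.26 at 3 h with no peak at 48 h. Uextra:17025949-17026550 had Su(Hw) scores of 203.49, 231.52 and 801.43, and dCTCF scores of 1858.93 at 0 h and 1373.41 at 3 h, again with no peak at 48 h. In all 7 regions the Su(Hw) score was highest at 48 h and the dCTCF score or call was lowest at 48 h. By percentile within each list, too, Su(Hw) was highest at 48 h and dCTCF lowest or not called at 48 h in all 7. A lower dCTCF percentile at 48 h than at 0 h was also found in 856 of 1312 unplaced regions and 2515 of 2937 arm regions. The dCTCF ceiling stands at 85.5 in the 0 h list and 85.0 in the 48 h list, so a region at the ceiling at both times counts as lower. The order of dCTCF at 0 and 3 h was not always the same by score and by percentile. In Uextra:3094442-3094907 the dCTCF score was lower at 3 h, while its percentile was 66.3 at 0 h and 71.0 at 3 h. In Uextra:9037027-9037496, for example, the Su(Hw) percentile was 13.3, 26.2 and 51.5, and in Uextra:3809267-3809840 the dCTCF percentile was 85.5, 74.9 and 35.3.

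The remaining 5 Su(Hw) regions lacked Su(Hw) at 1 or 2 of the times. Uextra:27346474-27347486 had Su(Hw) at 416.33 at 0 h and 1754.98 at 48 h, with dCTCF at 2139.09 at 0 h and 1631.79 at 3 h and none at 48 h. Uextra:24405686-24406212 had Su(Hw) at 342.14 at 3 h and 492.71 at 48 h. Uextra:22493128-22493555, Uextra:26195979-26196722 and Uextra:27485023-27485764 had a single Su(Hw) peak each, with scores of 192.01 at 3 h, 195.72 at 3 h and 126.78 at 0 h. dCTCF did not have its lowest score or no call at 48 h in 4 of these 5. In Uextra:22493128-22493555 it was found at 48 h alone, with a score of 160.49, and in Uextra:24405686-24406212 it had 380.34 at 0 h, no peak at 3 h and 359.62 at 48 h. It was highest at 48 h in Uextra:26195979-26196722, with scores of 802.37, 103.11 and 1831.37 at 0, 3 and 48 h, and in Uextra:27485023-27485764, with 238.97, 150.13 and 380.51. These last 2 held BEAF-32 at 0 h, with scores of 3100 and 2371.39. Over the 8 regions with Su(Hw) at both 48 h and 0 h, the score percentile was higher at 48 h in 8, with medians of 52.8 at 48 h and 33.3 at 0 h. On the arms the medians of such regions were 58.8 at 48 h and 56.9 at 0 h, and the percentile was higher at 48 h in 4869 of 6744. The median difference within a region was 28.4 over the 8 and 0.276 on the arms. The ceiling stands at 82.7 in the 0 h list and 83.0 in the 48 h list, so a region at the ceiling at both times counts as higher.

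The regions were unevenly spread along Uextra. Windows of 1 Mb held a median of 66 regions, and the window from 28 to 29 Mb held 378, or 16.4% of all Uextra regions, where the next highest window held 129. It also held all 12 of the Uextra regions wider than 3 kb. Within it, 43.7% of 339 BEAF-32 regions of 0 h had no BEAF-32 at 3 h or 48 h, against 63.6% of 1296 elsewhere on Uextra. The 3 proteins were shared in 30.7%, 23.5% and 12.2% of its regions at 0, 3 and 48 h and in 18.7%, 6.71% and 3.90% elsewhere. BEAF-32 was present in 89.7%, 50.3% and 19.3% of the regions of that window at 0, 3 and 48 h, and in 67.4%, 24.8% and 17.7% of those elsewhere. The window thus held more BEAF-32 at 0 and 3 h, while its share at 48 h was close to that elsewhere. Such an excess was not confined to BEAF-32. dCTCF was present in 72.8%, 44.2% and 80.2% of the regions of the window at 0, 3 and 48 h and in 52.8%, 45.2% and 58.2% elsewhere. CP190 was present in 38.4%, 42.1% and 49.5% and in 32.9%, 35.1% and 33.6% elsewhere. Scaffolds are joined end to end in U and Uextra, so neighbouring regions need not be neighbours in the genome.

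The 2 widest regions lay on U, and the second of them was U:2190185-2199739. The first, U:5288002-5304002, was a single CP190 peak of 16001 bp at 0 h, with a score of 1200.61, and of 15831 bp at 48 h, at the ceiling. It had no CP190 peak at 3 h and no peak of another protein. U:6702678-6707203 held CP190 at all 3 times, with scores of 2278.08, 3100 and 3100 over 3075, 3150 and 3179 bp, and BEAF-32 with scores of 172.17, 651.25 and 988.34 over 4264, 557 and 888 bp. Its BEAF-32 score percentile was 16.0, 35.0 and 41.0 at 0, 3 and 48 h, higher at 3 h and at 48 h than at 0 h, while the peaks were narrower.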

How the data were processed

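Chromatin of crosslinked Kc167 cells was sonicated, immunoprecipitated and sequenced in 12 libraries, 1 peak list each, per the labels' protocols. The submitters' processing notes name Bowtie 0.12.5 as a tool of the deposited data. Peak names carry the MACS prefix, per the files. The caller's version, control and settings and the build are not stated in the labels or files, and the sequence names are those of Release 5. Coordinates count from 1. The score per peak is the authors' deposited value. Ranks and percentiles were taken within each list. Raw scores also entered the score classes, chosen after the values were seen, the counts at the ceiling and the values of named regions across times, although no source says that lists share a scale. Scores from 3100 upwards counted as ties.

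Peaks overlapped when they shared at least 1 bp, and overlapping peaks of all 12 lists were merged into regions. The members and lists were chosen with earlier results of these data known. Named regions are all those with Su(Hw), and 5 each of the regions in most lists, the widest, those BEAF-32 left or kept with the highest 0 h score, and those with the strongest dCTCF new at 48 h, with ties broken by width. Python 3.11.15, numpy 2.4.6, pandas 2.3.3, scipy 1.17.1 and matplotlib 3.10.9 were used, and overlaps and merging were tested on simulated data. The input libraries are not analysed here. No genome of the build was used, so no sequence or gene is given.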

Additional observations from a re-analysis of the deposited data

Results flagged for a closer look

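Counts on unplaced sequence moved the opposite way to those on the main arms in the same libraries in 5 comparisons. BEAF-32 peaks changed by -1036 at 3 h and by -1332 at 48 h on unplaced sequence, while they changed by 1695 and 1709 on the main arms and by 36 and 24 on the Het pieces. dCTCF changed by -321 at 3 h on unplaced sequence and by 82 on the arms. On the Het pieces dCTCF also fell, from 71 peaks at 0 h to 62 at 3 h. At 48 h it changed by 116 on unplaced sequence, by -670 on the arms and by -9 on the Het pieces. CP190 at 48 h changed by 65 on unplaced sequence and by -53 on the arms, and on the Het pieces it rose from 59 to 63 peaks. With 1 library for each protein and time these differences were not tested.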

How the results depend on the processing

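The peak counts, the shares of 0 h peaks found again, the regions BEAF-32 left, the regions shared by the 3 proteins and the Su(Hw) regions were recomputed under alternative settings, 132 values in all, of which 119 were planned and 13 were chosen after seeing the data. Of these, 69 stayed within 1.5 times a count or within the interval of a share. Merging peaks under 200 bp apart, requiring an overlap of 50% of the shorter peak, requiring 1 base covered by all 3 proteins, taking Uextra alone and merging the BEAF-32 lists alone moved none of these results they were applied to. The share of BEAF-32 classes with dCTCF was recomputed as well, with its values beside the result. The CP190 and dCTCF time classes, the splits by partner, the pair overlaps, the percentiles and the widths were not recomputed.

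Settings that keep fewer peaks lowered counts by construction and also turned some orders of times. In the top 50%, BEAF-32 was lowest at 3 h instead of 48 h, dCTCF was highest at 0 h instead of 48 h, and CP190 was lowest at 3 h instead of highest. CP190 was also lowest at 3 h with lists of equal length, and on U alone the shared regions did not fall at 48 h. In the top 50% of each list the unplaced counts at 0, 3 and 48 h were 213, 186 and 229 for CP190, 899, 644 and 868 for dCTCF and 768, 78 and 92 for BEAF-32. Su(Hw) then had 2 at 0 h and 2 at 3 h and 6 regions at any time, and the 3 proteins shared 45, 7 and 3 regions. On U alone the counts were 115, 125 and 113 for CP190, 127, 123 and 164 for dCTCF, 167, 68 and 67 for BEAF-32 and 0, 0 and 0 for Su(Hw), with 46, 12 and 13 shared regions. With all lists shortened to the 5037 peaks of the shortest they were 507, 419 and 598 for CP190, 430 and 208 for BEAF-32 at 3 and 48 h, and 4 and 2 for Su(Hw) at 0 and 3 h, with 264, 53 and 23 shared regions. BEAF-32 had left 671 of 766 regions (87.6%) in the top 50% and 105 of 166 (63.3%) on U alone, against 59.8% as reported. In the top 50%, a treated peak below the cut counts as absent, so 87.6% is not the loss among strong 0 h peaks. With whole lists, 57.0% of unplaced BEAF-32 peaks scoring 1000 to 3100 at 0 h and 86.1% at the ceiling overlapped one at 3 h. At 48 h these shares were 26.2% and 45.8%.

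The shares of unplaced 0 h peaks found again at 3 h and 48 h also moved under some settings, and the cause was not tested. With lists of equal length they were 29.0% and 13.8% for BEAF-32 and 67.7% and 80.3% for CP190, and 95.2% for dCTCF and 100% for Su(Hw) at 48 h. The treated lists were shortened too, so a treated peak below the cut counted as absent. The CP190 share was then lower at 3 h than at 48 h, where the whole lists gave 87.6% and 85.0%. On U alone they were 33.5% and 32.3% for BEAF-32 and 87.4% and 91.3% for dCTCF. A peak within 1 kb gave 43.1% and 27.4% for BEAF-32 and 79.8% and 94.1% for dCTCF. Centres within 250 bp gave 35.2% for BEAF-32 and 85.1% for CP190 at 3 h, and 87.2% for dCTCF at 48 h. Without positions over 28 Mb of Uextra, chosen after seeing the data, the 3 h shares were 33.6% for BEAF-32 and 79.6% for dCTCF, and the shared regions were 139 at 3 h and 87 at 48 h. No paired analysis was possible because the labels give no replicate numbers and each protein and time had 1 library.

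The files give no read counts, so depth is unknown and a peak absent from a list shows only that none was called. Differences between times rest on single libraries, and the spread between replicates is unknown. No source used here says how reads from repeats were placed, and whether regions are copies of 1 sequence was not tested. Scores tied at the ceiling hide differences among the strongest peaks.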

Other observations

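Off the unplaced sequence, the CP190 list of 48 h held a peak of 16939 bp, with a score of 2743.84, on the mitochondrial sequence. It reached past the first base of that sequence, and no other list, that of 0 h included, had a peak there. The CP190 peak U:5288002-5304002 was 15831 bp wide at 48 h and 16001 bp at 0 h. Whether the 2 sequences are related was not tested.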
